A study of Homo sapiens with 4 samples.

Results

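This account covers 50 interferon-stimulated and antiviral genes in BEAS-2B cells, a line of immortalized human bronchial epithelial cells, treated with lipopolysaccharide (LPS) with or without a PDZ peptide. The genes were taken from a list of symbols, with no threshold on their values, and all 50 were among the 24424 gene symbols counted. The list was chosen with earlier results of these data known. Each of the 50 had at least 1 read in at least 1 library, and for 44 the normalized counts averaged 16 or more across the 4 libraries. The lowest mean above that limit was that of CXCL10 (20.6) and the highest below it was that of GBP5 (15.5). The other members below the limit were CXCL9, CXCL11, MX2, RSAD2 and CMPK2.

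The cells of all 4 libraries were labelled wild type in genotype. Control cells received no treatment, LPS cells received LPS for 2 hr, and the WT PDZ+LPS and mut PDZ+LPS cells received the wild-type or the mutant PDZ peptide, which derives from the tight junction protein ZO-1, for 24 hr before the 2 hr of LPS. RNA of each condition was sequenced as 1 library, so no difference has a replicate check, the peptides cannot be told apart from differences between single libraries, and no p-value is given. Peptide without LPS was not analysed here.

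LPS is sensed by the receptor TLR4 at the cell surface and in endosomes. Through the adaptors TICAM1 and TICAM2 this receptor can activate the factor IRF3 and the interferon-beta gene, and secreted interferon then signals through JAK kinases to transcription factors that switch on interferon-stimulated genes at a short sequence called the interferon-stimulated response element. Some of these genes are also switched on directly by NF-kB, IRF1 or IRF3, without secreted interferon. Their products sense or degrade viral RNA, block the entry and release of viruses, attract T cells, or attach to the vacuoles and surface of bacteria.

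The start regions of 5 members are shown so that the sequence element by which the gene set is usually recognized can be seen where it is present and where it is not. They are 300 bases long, from 250 before to 50 after the transcription start, and come from RefSeq (GRCh38.p14). The first 4 belong to the genes with the most counts in LPS among those at least 2-fold higher in LPS than in Control with a window in that table, and the last belongs to a gene that was not called and also holds the element. Capitals mark each match to the core of the interferon-stimulated response element (GAAA and GAAA with any 2 bases between them) on either strand.
TRIM25, chr17:56914000-56914299, minus strand: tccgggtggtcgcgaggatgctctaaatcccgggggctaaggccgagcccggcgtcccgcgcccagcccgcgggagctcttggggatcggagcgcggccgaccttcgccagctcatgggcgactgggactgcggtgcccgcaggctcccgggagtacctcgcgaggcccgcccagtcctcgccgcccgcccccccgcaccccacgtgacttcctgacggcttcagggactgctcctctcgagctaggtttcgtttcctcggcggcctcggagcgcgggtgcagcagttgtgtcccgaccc
GBP1, chr1:89065159-89065458, minus strand: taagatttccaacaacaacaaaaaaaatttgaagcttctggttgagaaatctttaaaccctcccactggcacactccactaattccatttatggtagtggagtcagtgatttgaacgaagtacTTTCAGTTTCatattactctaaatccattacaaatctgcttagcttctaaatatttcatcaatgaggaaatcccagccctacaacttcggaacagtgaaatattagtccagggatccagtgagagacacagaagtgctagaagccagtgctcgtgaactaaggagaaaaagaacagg
GBP3, chr1:89022817-89023116, minus strand: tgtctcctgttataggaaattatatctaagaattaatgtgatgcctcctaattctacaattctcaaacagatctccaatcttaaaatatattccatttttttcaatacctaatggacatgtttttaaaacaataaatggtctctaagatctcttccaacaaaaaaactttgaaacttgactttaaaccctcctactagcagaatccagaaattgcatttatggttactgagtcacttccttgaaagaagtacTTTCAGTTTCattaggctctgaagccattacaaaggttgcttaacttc
IFIT3, chr10:89327747-89328046, plus strand, 1 of 2 start regions of the gene: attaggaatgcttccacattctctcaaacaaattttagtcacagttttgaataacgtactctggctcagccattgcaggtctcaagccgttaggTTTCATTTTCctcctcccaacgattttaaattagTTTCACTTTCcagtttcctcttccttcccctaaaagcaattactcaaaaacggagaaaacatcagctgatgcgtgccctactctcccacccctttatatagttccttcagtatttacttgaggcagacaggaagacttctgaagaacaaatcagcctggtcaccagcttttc
IFITM3, chr11:320811-321110, minus strand: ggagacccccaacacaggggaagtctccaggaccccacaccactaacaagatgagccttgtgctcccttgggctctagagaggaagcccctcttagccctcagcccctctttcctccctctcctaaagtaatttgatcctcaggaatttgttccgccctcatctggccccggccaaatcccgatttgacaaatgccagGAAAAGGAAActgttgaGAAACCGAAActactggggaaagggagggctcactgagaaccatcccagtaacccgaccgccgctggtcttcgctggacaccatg

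The match lay at bases -127 to -118 from the start in GBP1 and at bases 3 to 12 in GBP3. IFIT3 held matches at -156 to -147 and at -122 to -113, and IFITM3 at -52 to -43 and at -35 to -26. TRIM25 held none in this window. Start regions were found for 40 of the 50 members, with DDX58 listed under the symbol RIGI. DHX58, OAS2, OASL, IFIT2, USP18, IFITM2, MX2, GBP2, GBP5 and TRIM22 had no entry. The core was present in 28 of the 40 members (70%) and in 4.38% of 27305 genes with a start region. It was present in 5 of the 7 members with a window that were at least 2-fold higher in LPS than in Control, and in 23 of the 33 members that were not. The element was therefore common among members that differed between LPS and Control and among members that did not. The NF-kB consensus was found in 10 of 40 members (25%) and 13.3% of all genes. The core of the interferon-gamma activated site (TTC and GAA with any 3 bases between them) was found in 10 of 40 (25%) and 9.38% of all genes, and overlapped the response element core in 5 windows. Both strands were searched for each. A match describes letters in this window and does not show that a factor bound there.

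The libraries held between 19682929 and 25155647 counts. Counts were divided by geometric size factors between 0.851 and 1.15 to give normalized counts, and a fold change compares normalized counts of 2 libraries on the log2 scale after adding 1. Genes that differed 2-fold or more, and reached 16 normalized counts in either library of the pair, were called changed. Intervals are exact 95% binomial intervals of the ratio of counts. They reflect the error of counting alone, since each condition had 1 library. Reads that lack molecular identifiers may be copies of 1 molecule, so the intervals may be too narrow. The epithelial keratins KRT7, KRT8 and KRT18 had between 12781 and 51663 normalized counts in each library, KRT5 had between 1015 and 1607, and CDH1 had between 362 and 620. EPCAM was low (34.8 to 49.5), and KRT19 ranged from 87.9 in WT PDZ+LPS to 188 in Control, a log2 fold change of -1.09 that was called lower. Of the fibroblast markers COL1A1 had 288 to 422, PDGFRB had 78.7 to 121 and COL1A2 at most 7.53, and each of the 3 endothelial markers had at most 7.53. PTPRC, which marks leukocytes, had 0 counts in all 4 libraries, which allows up to 3 counts in each. CD14 (366 to 523 normalized counts) and CD68 (305 to 362) were present. In bulk RNA, fewer cells that express a gene and less RNA per cell cannot be told apart. The library of the mutant peptide stood apart from the other 3 in how counts depended on transcript length. Across 12120 expressed genes, those averaging 16 or more, Spearman's rho between the log2 fold change of mut PDZ+LPS/LPS and transcript length was -0.60, against 0.075 for WT PDZ+LPS/LPS. For the main values of mut PDZ+LPS a second value, corrected for length and GC content, is therefore given, while levels in single libraries are as counted.

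In LPS/Control, which asks what LPS alone changed at 2 hr, 8 of the 45 members tested (17.8%) were called higher and 0 lower, whereas 3.46% of all genes tested were called higher and 1.41% lower. The 8 were CXCL10, DDX58, IFIT3, TRIM25, GBP1, GBP2, GBP3 and GBP4. The median log2 fold change of the 44 expressed members was 0.10 (95% interval across genes -0.04 to 0.38), beside -0.0010 for all such genes. GTPases had 4 called of 6 tested, and chemokines, RNA sensors, the IFIT family and the ISG15 conjugation group had 1 each. Membrane restriction factors, ubiquitin and ADP-ribose enzymes, nuclear body proteins and other interferon-induced genes had none called, and ISG20, the only nucleic acid enzyme tested, was not called either. The 37 members that were tested and not called ranged from -0.76 (IFIT1) to 0.84 (IFIT2), and for 18 of them the counting interval included 0.

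**Figure D1:**
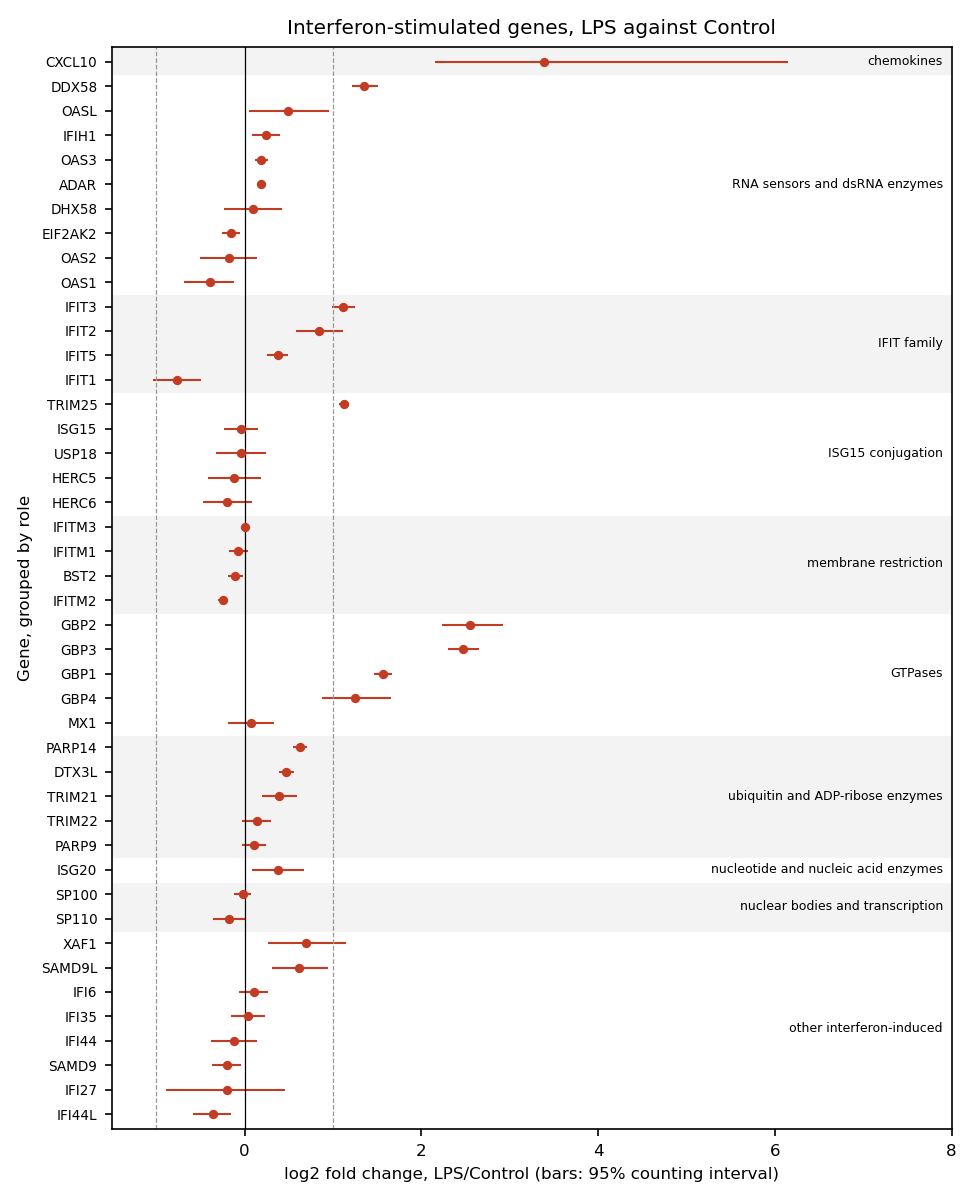
Log2 fold change of LPS/Control (x axis) for the 44 expressed members (y axis), grouped by role. Points are 1 library against 1 library, bars are 95% counting intervals, and dashed lines mark a fold of 2. GBP2, GBP3, GBP1 and GBP4 lie between 1.25 and 2.55, while ISG15 lies at -0.04 and IFITM3 at 0.0012.

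The guanylate-binding proteins, large GTPases that coat pathogen vacuoles and cytosolic bacteria, held 4 of the 8 members called. GBP2 had 71.4 normalized counts without LPS, 424 with LPS alone, 293 after the wild-type peptide and 409 after the mutant peptide. It was 5.94-fold higher in LPS than in Control (log2 2.55, counting interval 2.23 to 2.93). GBP3 had 273, 1516, 1200 and 1287 normalized counts in that order of libraries, and was 5.55-fold higher in LPS than in Control. In both genes every library with LPS stood far above Control, and that of the wild-type peptide was the lowest of the 3. All further values of 4 libraries keep this order.

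GBP1, which binds LPS on the bacterial surface, had 951, 2815, 2315 and 2625 normalized counts, a difference of 2.96-fold between LPS and Control. GBP4 had 72.2, 173, 167 and 189, and was 2.40-fold higher in LPS. The 3 libraries with LPS lay close to each other for GBP4, with each interval against LPS including 0. GBP5 had 12, 18, 11 and 20 counts, and its interval in LPS/Control included 0 (log2 0.65, -0.44 to 1.88). Per kb of transcript, GBP1 was the most abundant of the family in LPS (927 normalized counts per kb), followed by GBP3 (494), GBP2 (191), GBP4 (28.2) and GBP5 (3.60). A small part of the possible reads of GBP1 is shared with a pseudogene, GBP1P1 (1.87% of its stretches of 100 bases). The other GTPases, MX1 and MX2, block the replication of RNA viruses. MX1 had a log2 fold change of 0.070 and MX2 had 8 counts in LPS against 2 in Control, with an interval that included 0.

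**Figure D2:**
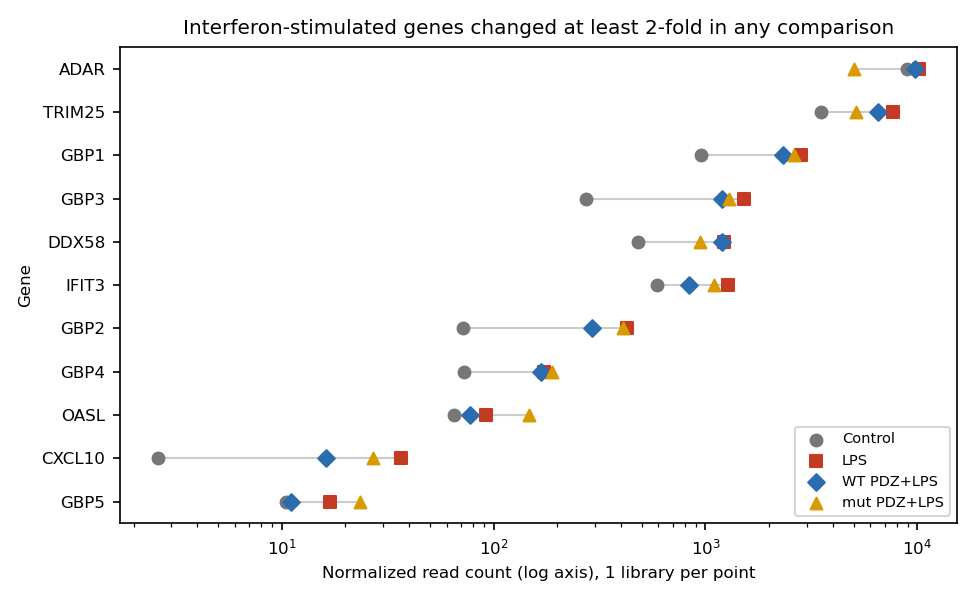
Normalized counts (x axis, log scale) in the 4 libraries for the 11 members at least 2-fold different in any comparison (y axis), 1 point per library. GBP1, GBP2, GBP3, GBP4 and CXCL10 are at least 2-fold higher in all 3 libraries with LPS than in Control, and ADAR is lowest in mut PDZ+LPS (5044).

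CXCL10, a chemokine that attracts activated T cells, had 3, 39, 16 and 23 counts. It was 14.1-fold higher in LPS than in Control, with a wide interval set by the low counts (log2 3.38, 2.16 to 6.15). The other chemokines of the same receptor hardly appeared. CXCL9 had 1 read in LPS and none elsewhere, and CXCL11 had 0, 5, 2 and 1 counts. Taking the 0 in Control as 3 counts gives CXCL11 a fold of 1.80 in LPS/Control. Its counting interval, with a lower end of -0.014 on the log2 scale, included 0.

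DDX58, which encodes the cytosolic RNA sensor RIG-I, had 478, 1225, 1200 and 946 normalized counts. It was 2.56-fold higher in LPS than in Control (log2 1.36). The sensors IFIH1 and DHX58 were not called, and neither were OAS1, OAS2 and OAS3, which make the oligoadenylates that activate RNase L. ADAR, which edits adenosine to inosine in double-stranded RNA, had 8952, 10170, 9712 and 5044. Its log2 fold change in LPS/Control was 0.18. OASL, which supports signalling by RIG-I, had 65.3, 92.2, 77.8 and 147, with the highest value after the mutant peptide.

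The IFIT proteins, which bind viral RNA, had log2 fold changes from -0.76 to 1.12 in LPS/Control. IFIT3 had 588, 1277, 834 and 1096 normalized counts, and was 2.17-fold higher in LPS than in Control (log2 1.12, 0.98 to 1.25). IFIT2 and IFIT1, named after their values were seen, lay on opposite sides of 0. IFIT2 had 171, 307, 234 and 249, a log2 fold change of 0.84 in LPS/Control that missed the limit of 2-fold. IFIT1 had 280, 165, 174 and 189, a log2 fold change of -0.76 (-1.04 to -0.50). IFIT5 had 954, 1236, 1060 and 1243. For IFIT2, 7.13% of the stretches of 100 bases in its transcript occur in another gene as well, so part of its reads could have been counted elsewhere.

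TRIM25, a ubiquitin ligase that acts on RIG-I and also attaches ISG15, had 3512, 7650, 6535 and 5121 normalized counts. It was 2.18-fold higher in LPS than in Control (log2 1.12, 1.07 to 1.18). In LPS/Control the others of that group differed little. ISG15 itself, a ubiquitin-like modifier, had 419, 406, 440 and 786, and HERC5, HERC6 and USP18 had log2 fold changes between -0.20 and -0.04 in LPS/Control. For USP18, 15.4% of the stretches of 100 bases in its transcript occur in another gene as well.

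Restriction factors at membranes were abundant in all 4 libraries. IFITM3, which hinders the fusion of viruses in endosomes, had 8885, 8892, 9460 and 13829 normalized counts. The log2 fold change of LPS/Control was 0.0012 (-0.039 to 0.042) for IFITM3, and the group of 4 had a median of -0.087. Per kb, IFITM3 was the most abundant member in LPS, at 11005 normalized counts per kb. IFITM1, IFITM2 and IFITM3 share sequence, and 37.7% of the stretches of 100 bases of IFITM1 occur in IFITM2 or IFITM3, so the split of reads among them is uncertain.

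PARP14, a mono-ADP-ribosyltransferase, had 1805, 2789, 2424 and 1880 normalized counts. Its log2 fold change in LPS/Control, 0.63 (0.55 to 0.71), was the highest of its group of 5, none of which was called. ISG20, an exonuclease that degrades RNA, had 159, 207, 193 and 299.6 normalized counts. SP100, a scaffold of nuclear bodies, had 1489, 1466, 1375 and 1367 and hardly differed. Of its stretches of 100 bases, 11.8% occur in another gene as well, so part of its reads could have been counted elsewhere. IFI6, a small membrane protein, had 531, 570, 554 and 819. RSAD2, which makes a chain-terminating nucleotide, had 10, 3, 2 and 10 counts and CMPK2, a nucleotide kinase, had 4, 5, 7 and 0. Counts this low leave the direction of both genes unresolved.

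The genes that make, sense and relay interferon were counted over a second list of 60 symbols, of which 47 had a read and 37 were expressed at that level. In LPS/Control 9 of 37 tested (24.3%) were called higher and 0 lower, beside the 3.46% and 1.41% of all genes. This list was chosen with earlier results of these data known, so its shares are a description only. IFNB1, the gene of interferon-beta, had 1 read in LPS and 0 in the other libraries, and IFNG, IFNL2 and IFNL3 had 0 in all 4, each of which allows up to 3 counts. IFNE, an epithelial interferon, was the only interferon gene with a mean of at least 16. It had 61, 86, 66 and 68 counts. Its log2 fold change in LPS/Control was 0.60, with a counting interval wholly above 0, and it was not called. TLR4 had 1582, 1604, 1680 and 1174 normalized counts. LY96, which encodes the TLR4 partner MD-2, had 1 read in Control and 0 elsewhere.

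IRF1, a factor that binds interferon response elements and is itself a target of NF-kB, had 1069, 13155, 9895 and 13572 normalized counts. It was 12.3-fold higher in LPS than in Control (log2 3.62). Its log2 fold change between the wild-type peptide and LPS alone was -0.41 (-0.45 to -0.37). JAK2, a JAK kinase that relays signals from receptors, had 639, 2565, 2548 and 2334. IKBKE, a kinase that activates IRF3, had 399, 1215, 1137 and 1126. Both kinases were higher in every library with LPS, at similar levels in the 3.

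The receptor subunits IFNAR2, IFNGR1 and IFNGR2 had log2 fold changes of 1.04, 1.30 and 1.13 in LPS/Control. TICAM1 had 1.08, and IRF2BP2, a corepressor, had 1.43. TICAM2 had 0, 27, 35 and 30 counts, but it shares its sequence with the read-through gene TMED7-TICAM2, so the split of reads between them is uncertain. STAT2 and IRF9, factors that relay the interferon signal, were slightly lower than Control. Their log2 fold changes were -0.12 and -0.29, with counting intervals wholly below 0. IRF3 had 0.21 and IRF7 had -0.16. In WT PDZ+LPS/Control 6 of 37 tested were called higher and 0 lower, beside 3.28% and 1.42% of all genes. In mut PDZ+LPS/Control 10 of 38 tested were called higher and 1 lower, beside 5.13% and 2.96% of all genes. Among those 10, SOCS1 reached 16 normalized counts only through the mutant library (16.4). It was not tested in LPS/Control or WT PDZ+LPS/Control. The gene called lower was PIAS1, a SUMO ligase (log2 -1.07, corrected -0.68). SOCS1, which inhibits JAK kinases, had 0, 13, 9 and 14 counts, and SOCS3 had 1093, 2124, 1742 and 2539 normalized counts. No gene of this list was called in the 3 comparisons among the libraries with LPS, beside 0.635% to 2.14% of all genes in each direction. Few or no calls would come from 37 or 38 genes at such shares.

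**Figure D3:**
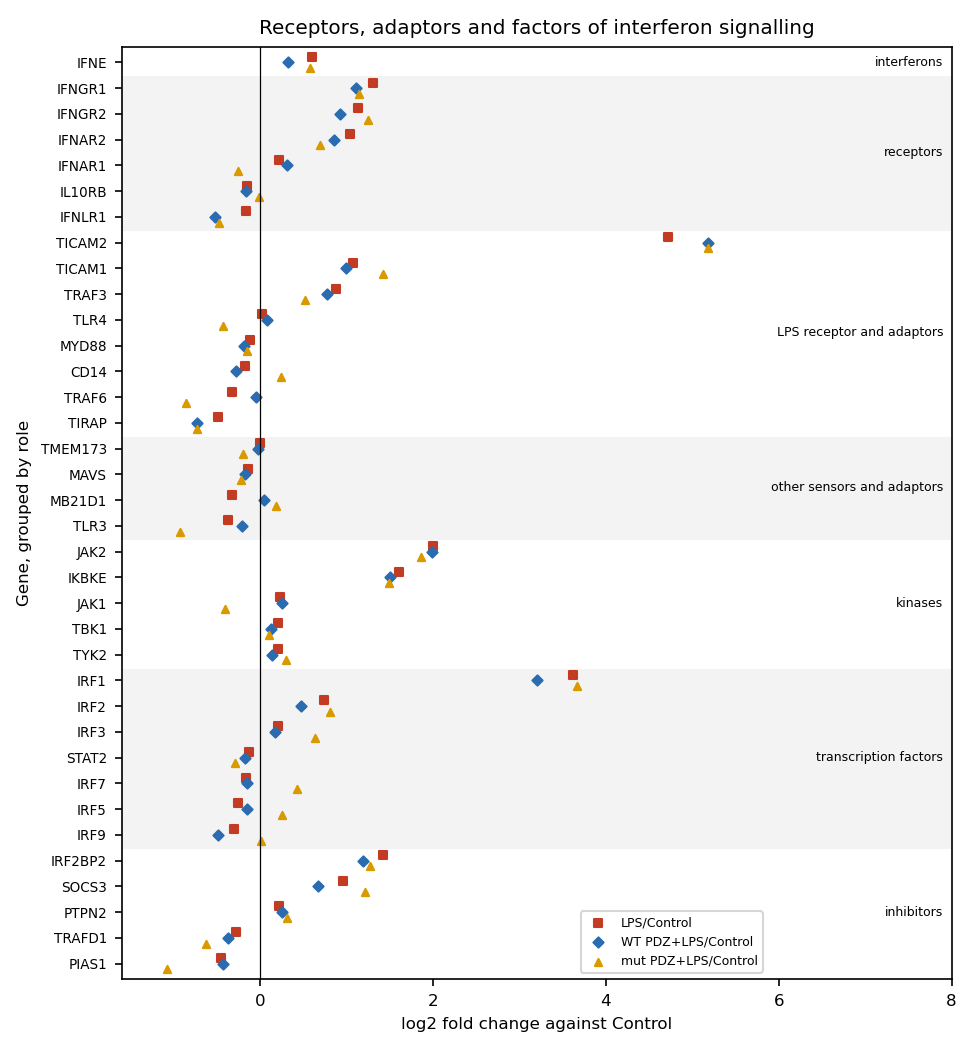
Log2 fold change against Control (x axis) of 36 of the 37 expressed genes of interferon signalling (y axis), grouped by role, with 1 symbol for each of the 3 libraries with LPS. IRF1 lies between 3.21 and 3.67, and JAK2 between 1.87 and 2.00.

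The peptide libraries were also set against Control. In WT PDZ+LPS/Control 6 of 44 members (13.6%) were called higher and 0 lower, whereas 3.28% of all genes were called higher and 1.42% lower. In mut PDZ+LPS/Control 7 of 45 members (15.6%) were called higher and 0 lower, whereas 5.13% of all genes were called higher and 2.96% lower. CXCL10, GBP1, GBP2, GBP3 and GBP4 were called higher in each of the 3 comparisons with Control, which share the Control library. IFIT3 and TRIM25 were called in LPS/Control alone, with log2 fold changes of 0.50 and 0.90 in WT PDZ+LPS/Control and 0.90 and 0.54 in mut PDZ+LPS/Control, where the corrected value of TRIM25 was 0.80. Of the comparisons with Control, OASL and GBP5 were called in mut PDZ+LPS/Control alone, and DDX58 was just under the limit there (0.98, corrected 1.17). GBP5 reached 16 normalized counts there only through the mutant library (20 counts against 12), and was not tested in WT PDZ+LPS/Control. With a pseudocount of 5, 6 members were called higher in mut PDZ+LPS/Control, beside 4.53% of all genes.

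WT PDZ+LPS/LPS asks what the wild-type peptide changed in cells given LPS. Here 1 of 45 members (2.22%), CXCL10, was called lower and 0 higher, whereas 0.733% of all genes were called lower and 0.635% higher. CXCL10 was 2.27-fold lower in WT PDZ+LPS than in LPS, from 16 and 39 counts (log2 -1.14, -2.12 to -0.31). The median over the 44 members was -0.075 (-0.20 to -0.011), beside 0.0075 for all genes, and 31 of the 44 lay below 0, compared with 6176 of 13072 genes. The counting interval lay wholly below 0 for 17 members and wholly above 0 for 4. The same count was not made over all genes, so it does not set the members apart.

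The members with lower values included most of those called in LPS/Control, which were chosen by the same LPS library. All 8 lay below 0 in WT PDZ+LPS/LPS, with a median of -0.31, and 6 had intervals wholly below 0. IFIT3 had a log2 fold change of -0.61 (-0.74 to -0.49), GBP2 of -0.53 (-0.75 to -0.32), GBP3 of -0.34, GBP1 of -0.28 and TRIM25 of -0.23. DDX58 and GBP4 had -0.030 and -0.055, with intervals that included 0. After the mutant peptide 7 of the 8 lay below 0 against LPS, with a median of -0.23 (corrected -0.18), and 5 had intervals wholly below 0. Both peptide comparisons share the LPS library by which the 8 were called. Against Control the median of the 8 was 1.46 with LPS alone, 1.30 after the wild-type peptide and 1.42 after the mutant peptide, and the corrected medians were 1.46, 1.30 and 1.61.

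**Figure D4:**
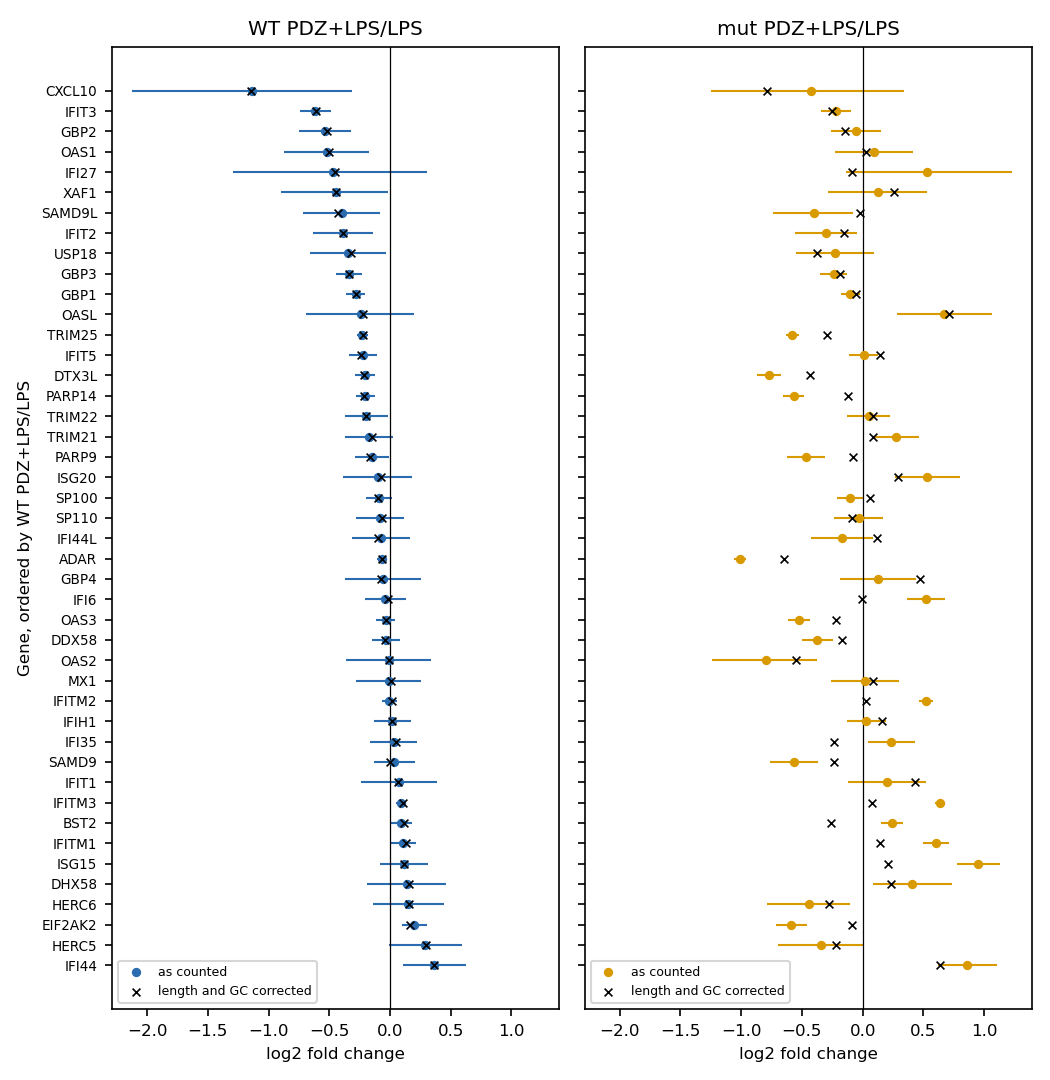
Log2 fold change against LPS (x axes) of the 44 expressed members (y axis, ordered by the values on the left), for the wild-type peptide (left) and the mutant peptide (right). Circles with bars are values as counted with 95% counting intervals and crosses are values corrected for transcript length and GC content, which hardly move on the left and move toward 0 for many genes on the right, such as ISG15 (0.95 to 0.21).

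In mut PDZ+LPS/LPS, the matching comparison for the mutant peptide, 1 of 45 members (2.22%), ADAR, was called lower and 0 higher, whereas 1.90% of all genes were called lower and 2.05% higher. ADAR was 2.02-fold lower (log2 -1.01, -1.06 to -0.96), and the corrected value was -0.65, which is under the limit. The median was -0.043 (-0.24 to 0.12, corrected -0.064), beside -0.023 for all genes, and 23 of 44 members lay below 0.

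The values followed transcript length. Over the 44 members, rho between the log2 fold change and length was -0.76, and -0.17 after the correction, as a description across genes that share 2 libraries. The 22 members with transcripts from 725 to 3266 nt had a median of 0.26, and the 22 from 3470 to 10042 nt had a median of -0.39. After the correction these medians were 0.0086 and -0.10. Among short transcripts, IFITM3 had a log2 fold change of 0.64 that was 0.079 after the correction, and IFI6 had 0.52 that became -0.0083. ISG15, named after its values were seen, had 0.95 and 0.21. Among long ones, TRIM25 had -0.58 and -0.29, and PARP14 had -0.57 and -0.12. OASL departed from this pattern with 0.67 as counted and 0.71 after the correction. The part of the length trend in each gene's difference was not tested further.

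**Figure D5:**
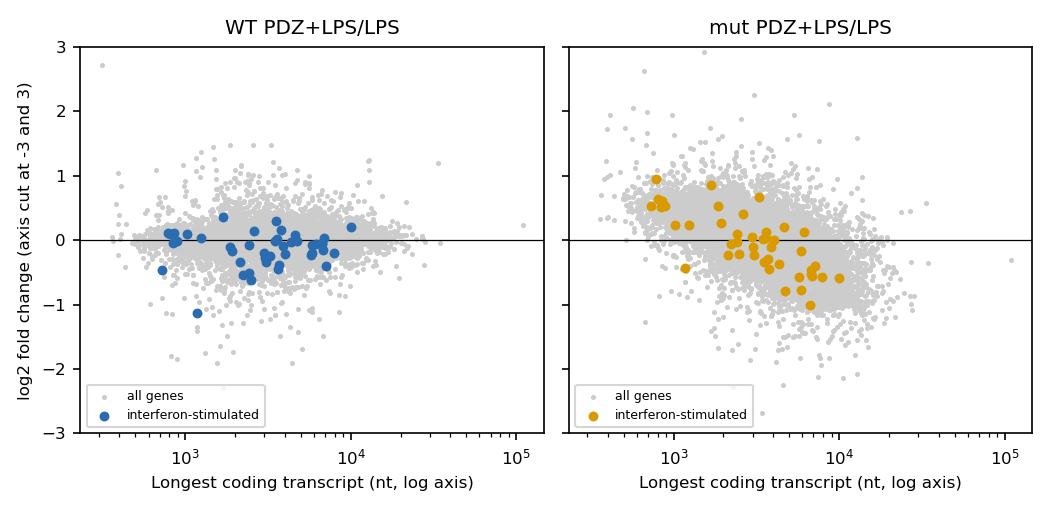
Log2 fold change (y axis, limited to -3 to 3) against the length of the longest coding transcript (x axis, log scale) for 12120 expressed genes of known length (grey) and the 44 members (colored), with the wild-type peptide against LPS on the left and the mutant peptide on the right. The points slope down on the right (rho -0.60 over all genes) and hardly on the left (0.075).

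In mut PDZ+LPS/WT PDZ+LPS, which compares the peptides directly, 1 of 45 members (2.22%), GBP5, was called higher and 0 lower, whereas 2.12% of all genes were called higher and 2.14% lower. GBP5 had 20 counts against 11, and its counting interval included 0 (log2 1.02, -0.049 to 2.29, corrected 1.27). Of this pair of libraries, only that of the mutant peptide reached 16 normalized counts of GBP5. The median over the 44 members was 0.14 (0.011 to 0.27), beside -0.020 for all genes, and the corrected median was 0.11. CXCL10, with 23 counts against 16, had an interval that included 0 as well (log2 0.71, -0.24 to 1.76, corrected 0.35).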

How the data were processed

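RNA from BEAS-2B cells was measured in 4 libraries, 1 per condition, grouped by the treatment in the labels. Poly(A)-selected RNA was made into libraries with a directional kit and sequenced as paired reads of 100 bases. The authors mapped the reads with TopHat, named with hg19 in the submitters' processing notes, and deposited raw counts per gene symbol. The counting tool, the annotation and the strand setting are not given in the sources used here. With strand unknown, overlapping and antisense genes cannot be told apart.

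The deposited counts were divided by geometric size factors (DESeq2 1.42.0, R 4.3.3), since the study names geometric normalization, and a pseudocount of 1 was added before log2. Calls needed a fold of 2 and 16 normalized counts (4 on the log2 scale) in either library. Counting intervals were exact (Clopper-Pearson, 95%). A library at 0 was set to 3 counts for a bound on the fold, and folds between libraries that both held 3 counts or fewer were left out. Medians cover genes with a mean of at least 16 and have order-statistic intervals across genes, which are not replicates.

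The correction removed a lowess trend (span 0.3, statsmodels 0.14.6) first over transcript length and next over GC content, taken from the longest coding transcript per gene (GENCODE 29), and kept the median of all genes. All 50 members and 12120 of 13072 expressed genes had both. The centring on that median was set after the first corrected values were seen. Shared sequence was counted as stretches of 100 bases that occur in transcripts of another gene. Start regions are from RefSeq (GRCh38.p14) and were matched by symbol, since the counts carry no coordinates.

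The members, roles and lists were chosen with earlier results of these data known. Genes were named where called in any of the 6 comparisons, as the member with the highest mean count in each role group, or as a listed pathway gene (IFNB1, STAT2, IRF1, IRF3, IRF7, IRF9, TLR4). Others named in the text were chosen after their values were seen. Alternatives were scaling by TMM (edgeR 4.0.16), by total count and by upper quartile, adding 5 before log2, dropping the expression rule or raising it to 64, a fold of 1.5, and the correction. The steps were tested on simulated data. Some results are not reported here.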

Additional observations from a re-analysis of the deposited data

Results flagged for a closer look

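EIF2AK2, which encodes the kinase PKR that stops translation when it binds double-stranded RNA, had a log2 fold change against LPS of 0.20 after the wild-type peptide and -0.59 after the mutant peptide, with counting intervals on opposite sides of 0. Its normalized counts were 1545, 1388, 1593 and 925, in the order of the report. With 1 library per condition the difference between the peptides was not tested, and both values share the LPS library. Corrected for length and GC content, the values were 0.16 and -0.089, and the transcript of EIF2AK2 is the longest of the members (10042 nt).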

How the results depend on the processing

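No paired analysis was possible because each condition had 1 library. With a fold of 1.5 the members called higher than Control were 13 with LPS (6.71% of all genes) and 16 with mut PDZ+LPS (11.6%), and those called lower were 1 with LPS alone (4.77%), 3 with the wild-type peptide (4.61%) and 5 with the mutant peptide (1613 of 13434 genes). Against LPS the same fold called 2 lower for the wild-type peptide (2.16%), and 5 higher (7.89%) and 4 lower (9.80%) for the mutant peptide. Between the peptides it called 7 higher (8.40%) and 6 lower (10.7%). Without the expression rule 1 member was called lower in each of the 3 comparisons with Control (5.37% to 6.16% of all genes), 1 higher (8.79%) and 3 lower (4.76%) for the mutant peptide against LPS, and 2 higher (9.16%) and 1 lower (7.83%) between the peptides. A pseudocount of 5, or at least 64 normalized counts, left 0 lower in WT PDZ+LPS/LPS (0.446% and 0.0435%) and 0 higher between the peptides (1.52% and 0.602%), where CXCL10 and GBP5 had the calls. With the length and GC correction 0 members were called lower in mut PDZ+LPS/LPS (1.04%). Upper-quartile scaling gave 1 higher (2.42%) and 0 lower (201 of 13378 genes) in mut PDZ+LPS/LPS and 2 higher between the peptides (2.59%). Total-count scaling gave 1 lower than Control for each peptide (2.05% and 4.20%), 0 lower in mut PDZ+LPS/LPS (1.70%), 2 higher between the peptides (2.35%) and a member median of 0.0029 in WT PDZ+LPS/Control, against 0.13 with geometric factors. It moved the median of all genes against Control to -0.13 with LPS alone and -0.12 with either peptide. The median of the members in LPS/Control was then -0.027, which is 0.105 above that of all genes. That gap can hardly change between scalings, because a scaling shifts all genes of a library alike. TMM moved none of these counts and medians. In WT PDZ+LPS/LPS 31 of 44 members lay below 0 under all 4 scalings, which hold these 2 libraries in nearly the same ratio. After the length and GC correction 29 of the 44 did. The other 108 of 138 values under alternatives stayed within 1.5 times the count or within the interval of the median. Where no cause is given here, the cause was not tested. Limits are 1 library per condition, the length trend of mut PDZ+LPS, and low counts for CXCL10 and GBP5.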
